A study of Homo sapiens with 10 samples.

Results

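The step from 1 to 2 μg/mL of α-amanitin was examined in A549 cells, a human lung adenocarcinoma line. The 2 libraries labelled with the higher dose were compared with the 2 labelled with the lower dose, which are 4 of the 10 libraries of the series. The labels name no engineered allele, and both groups were exposed to the toxin for 24 h before poly(A)+ RNA was sequenced. The 2 DMSO libraries enter the contrast only through the estimate of the spread, and their values are given beside the others as the level without toxin. The sources used here do not give the length of the DMSO treatment, and although the study's methods call replicates biological, they do not state whether each came from a culture of its own, so the p-values measure only the spread between these libraries, which may be technical.

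α-Amanitin is a cyclic peptide of death cap mushrooms that binds next to the active site of RNA polymerase II (RNA Pol II) and slows the addition of nucleotides to the growing transcript. With time it also leads to the loss of the largest subunit of the enzyme, RPB1, through degradation. Because introns are removed while the transcript is being made, the speed of RNA Pol II is known to affect which exons are kept, and messages with short lives are known to decline soonest when transcription is limited.

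The readouts were taken from the counts that the authors deposited for each intron and exon. Split reads, which cross a splice junction, were summed over the introns of each gene and expressed per 1000000 split reads (CPM) after TMM scaling. The inclusion rate of an exon was Ψ = inc/(inc + 2 × exc), with inc the reads that support inclusion and exc those that support skipping. The unspliced share of an intron was the share of (nD + nA) in (nD + nA + 2 × nDA), with nD and nA the unspliced reads over its donor and acceptor site and nDA its split reads. The libraries held 4400717 and 6498515 split reads at 1 μg/mL, then 5418093 and 5925116 at 2 μg/mL, within a range of 2899344 to 6498515 over the series. No listed count above 0 was below 3, so that a 0 can hide up to 2 reads. Of 6 markers of the epithelial line, KRT8, KRT18 and KRT7 passed the filter on low counts, with log2 differences between −0.02 and 0.14 and none at an unadjusted p under 0.05. Of 10 markers of blood, endothelial and stromal cells only COL1A1 passed that filter, with 108 and 53.2 CPM at 1 μg/mL and 84.8 and 28.3 CPM at 2 μg/mL. In bulk RNA fewer cells of a kind and less RNA per cell cannot be told apart.

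No gene passed an adjusted p of 0.05 in the comparison of 2 with 1 μg/mL (limma voom, 0 of 9644 genes, 0% called, lowest adjusted p = 0.326). At an unadjusted p under 0.05, 568 genes (5.89%) were higher and 690 (7.15%) were lower at the higher dose. Both libraries of one dose lay above both of the other in 2120 genes (22%) that were higher at 2 μg/mL and in 2136 genes (22.1%) that were lower. Among the genes that were so divided, 308 were higher and 382 lower by a factor of 2 or more. The median log2 difference over all genes was −0.001. These counts depend on single libraries. Without replicate 2 of 1 μg/mL, 142 genes were higher and 328 lower at an unadjusted p under 0.05, and without replicate 1 of 2 μg/mL the numbers were 213 and 238. Without replicate 1 of 1 μg/mL, 295 were higher. When only introns listed in each of the 6 libraries were summed, 6 genes passed an adjusted p of 0.05 (limma voom), namely FDXR, TNFRSF10D, HNRNPDL, NXF1, ATF4 and IVNS1ABP.

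POLR2A encodes RPB1, the subunit to which α-amanitin binds. Its split reads were at 504 and 350.5 CPM at 1 μg/mL and at 738.5 and 531 CPM at 2 μg/mL, with 191 and 145.5 CPM in DMSO. The lowest library of the higher dose was just above the highest of the lower dose, and replicate 1 was above replicate 2 in each of the 3 groups. The log2 difference was 0.58 ± 0.22 (SE, 2 libraries per dose; limma voom, unadjusted p = 0.0325, adjusted p = 0.36). Of the 15 subunits of RNA Pol II that were tested, 12 were above 0 and 3 below, with a median of 0.10 and with POLR2A as the single member at an unadjusted p under 0.05, and with none at that level without replicate 2 of 1 μg/mL or without replicate 1 of 2 μg/mL. Of the 19 subunits of RNA polymerases I and III none reached that level, but 4 were lower without replicate 2 of 2 μg/mL and 3 with the replicate number as a block. Factors of pause release and elongation went both ways. SUPT5H, the large subunit of the elongation factor DSIF, was at 567 and 535 CPM at 1 μg/mL and 772 and 647 CPM at 2 μg/mL, and CCNK, the cyclin partner of CDK12, was at 61.8 and 58.6 against 82.1 and 76.3 CPM. CDK12 itself, which phosphorylates the tail of RPB1, was at 51.9 and 49.9 CPM at the lower and 28.4 and 40.2 CPM at the higher dose. In all 4 members (14.3%) of this list of 28 were higher and 2 (7.14%) lower at an unadjusted p under 0.05. Its median of 0.03 turned to −0.004 when libraries were scaled by their total reads. No member was at an unadjusted p under 0.05 without replicate 2 of 1 μg/mL or without replicate 1 of 2 μg/mL.

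FDXR, a mitochondrial reductase that is a target of p53, had the lowest p of the genes that were higher. It was at 99.5 and 104 CPM at 1 μg/mL and at 218 and 186 CPM at 2 μg/mL, against 66.6 and 72.9 CPM in DMSO. The log2 difference was 0.98 ± 0.12 (SE; limma voom, adjusted p = 0.326). The gap between the doses was wider than that between the replicates of either dose, which the choice by lowest p among genes with doses apart favours. NXF1, the main export receptor of mRNA, was at 181 and 147 CPM at the lower dose and at 369 and 285 CPM at the higher, a log2 difference of 1.00 ± 0.16. TNFRSF10D, a decoy receptor for the death ligand TRAIL, had 57.6 and 41.2 CPM at 1 μg/mL and 148 and 117 CPM at 2 μg/mL, and only 6.32 and 19.2 CPM in DMSO. Its log2 difference of 1.47 ± 0.24 was the largest of the 10 genes chosen by lowest p among those that were higher. TUBGCP4, a component of the γ-tubulin ring, followed the same order with 2.67 and 3.03 CPM in DMSO, 18.3 and 22.9 CPM at 1 μg/mL and 44.7 and 38.7 CPM at 2 μg/mL. The other 6 of these genes differed by less. They were AP1B1 (an adaptor of clathrin coats), DAPK3 (a death-associated kinase), MAP2K3 (a kinase upstream of p38), CLPTM1L, EPS8L2 and FSCN1 (an actin bundling protein), with log2 differences from 0.45 to 0.68.

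Among the genes that were lower, MLLT10, a partner of the histone methyltransferase DOT1L, had the lowest p. It was at 58.2 and 66.8 CPM at 1 μg/mL and at 20.2 and 24.8 CPM at 2 μg/mL, with 95.8 and 93.8 CPM in DMSO. The log2 difference was −1.48 ± 0.18 (SE, limma voom, adjusted p = 0.326). The replicates of a dose lay close together, which the choice by lowest p favours. ATF4, the transcription factor of the integrated stress response, had 105 and 111 CPM at the lower and 49.4 and 58.0 CPM at the higher dose, a log2 difference of −1.01 ± 0.14. HNRNPDL, a nuclear RNA-binding protein, was at 196 and 201 CPM and then at 57.3 and 94.1 CPM. Here the replicates at 2 μg/mL were further from each other than those at 1 μg/mL, though both were below them, and the log2 difference was −1.42 ± 0.20. SCAF8, which binds the tail of RPB1, differed by −1.37 ± 0.24, from 43.8 and 50.2 CPM to 14.4 and 22.5 CPM, with 48.4 and 48.9 CPM in DMSO, so that for this gene the lower dose overlapped the untreated level. The remaining 6 were IVNS1ABP, the receptor LGR4, SMIM7, the glutamine transporter SLC38A2, the adhesion protein TNS3 and SNHG17, a host of small nucleolar RNAs, with log2 differences between −1.05 and −0.68.

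**Figure D1:**
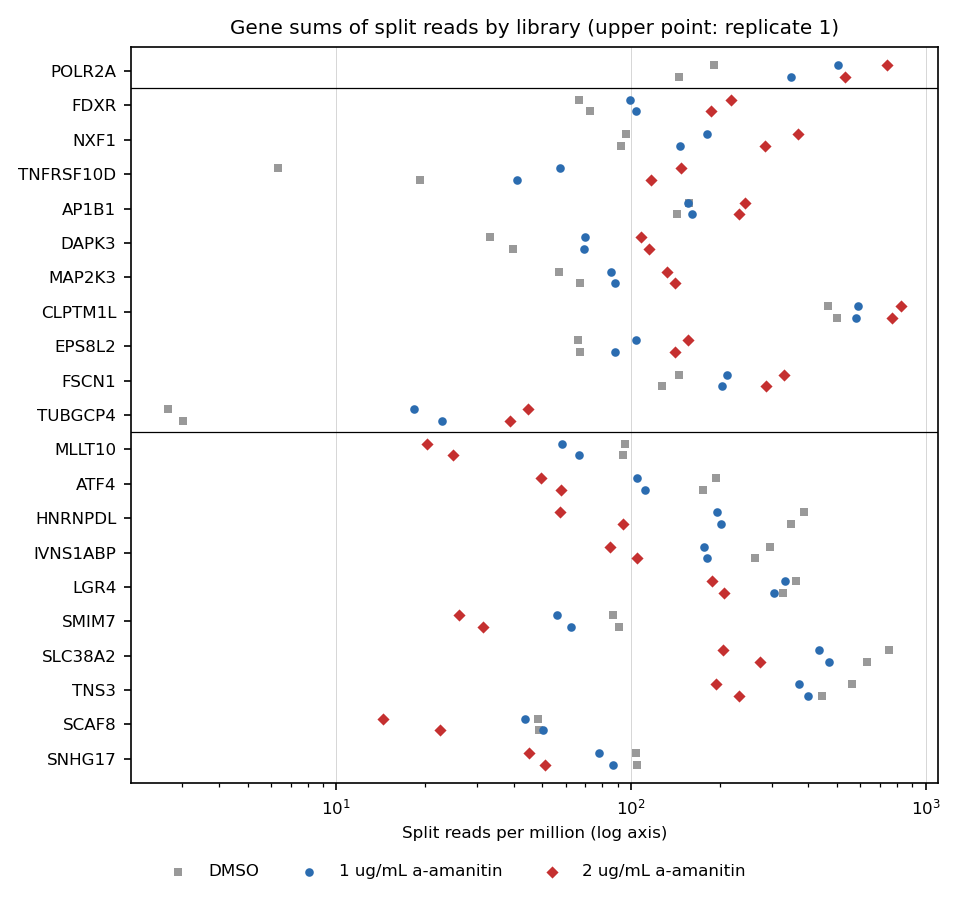
Split reads in CPM (log axis) of POLR2A and of the 10 genes that were higher and the 10 that were lower at 2 μg/mL with the lowest p, for each DMSO, 1 μg/mL and 2 μg/mL library. Each point is 1 library, with replicate 1 drawn above replicate 2, and both 2 μg/mL points lie to one side of both 1 μg/mL points in every row, which the choice of genes required except for POLR2A.

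The lists of genes, 28 of pathways and 2 of cell type markers, are each described by how many of its members had an unadjusted p under 0.05 beside the 5.89% and 7.15% over all genes. Of 28 tested genes in the list of p53 targets, 12 (42.9%) were higher and 1 (3.57%) was lower, with a median log2 difference of 0.52. CDKN1A, the cyclin-dependent kinase inhibitor p21, was at 24.2 and 27.4 CPM at 1 μg/mL and 52.0 and 45.4 CPM at 2 μg/mL, with 9.72 and 14.1 CPM in DMSO. The death receptor FAS was at 12.6 and 11.0 CPM and then 28.4 and 23.6 CPM, and SESN1, a stress-induced inhibitor of mTORC1 signalling, at 14.7 and 15.5 and then 37.5 and 32.2 CPM. In each of these 3 genes the doses did not overlap, as in 22% of all genes in this direction. MDM2, a ubiquitin ligase of the pathway, had 65.2 and 70.6 CPM at the lower and 84.6 and 104 CPM at the higher dose. FDXR, the receptor TNFRSF10B, the repair genes XPC and DDB2, RRM2B, GADD45A and TIGAR were also among the 12. The member that was lower was PLK2, a polo-like kinase, at 148 and 164 CPM and then 92.1 and 113.5 CPM. GDF15, a secreted factor, had 16.7 and 15.5 CPM at 1 μg/mL and 11.0 and 11.2 CPM at 2 μg/mL, and CCNG1 had 92.1 and 96.0 against 87.2 and 95.9 CPM. The number of members that were higher was 6 without replicate 2 of 1 μg/mL and 8 without replicate 1 of 2 μg/mL.

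Among the genes of RNA-binding proteins that regulate splicing, none passed the adjusted threshold. Of 27 hnRNP genes 10 (37%) were lower at an unadjusted p under 0.05 and 0 were higher, with a median of −0.23 and 23 of 27 members below 0. HNRNPD, which binds AU-rich elements, was at 252 and 265 CPM at 1 μg/mL and at 151 and 190 CPM at 2 μg/mL. HNRNPL and PTBP1, both repressors of exons, were at 484 and 575 against 315 and 396 CPM, and at 416 and 492 against 290 and 338 CPM. All libraries of the higher dose were below those of the lower in these 3 genes, as in 22.1% of all genes. HNRNPA1, a shuttling repressor of exons, had 1824 and 1975 CPM and then 1337 and 1479 CPM. HNRNPA3, HNRNPH3, HNRNPLL, HNRNPR and HNRNPUL1 complete the 10. The count was 5 without replicate 2 of 1 μg/mL and 6 without replicate 1 of 2 μg/mL.

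Of 20 genes of SR proteins and their kinases, 6 (30%) were lower and 1 (5%) higher. SRSF3, a small SR protein that activates exons, was at 435 and 512 CPM at 1 μg/mL and at 255 and 361 CPM at 2 μg/mL (log2 difference −0.64 ± 0.18). SRSF1, SRSF2, SRSF6, SRSF10 and the kinase SRPK2 were also lower. CLK1, a kinase that phosphorylates SR proteins, was the member that was higher, at 42.4 and 35.9 CPM and then 68.9 and 50.5 CPM. The number that were lower was 1 without replicate 1 of 2 μg/mL, and 4 and 2 without replicate 1 and replicate 2 of 1 μg/mL. In the core spliceosome 3 of 41 genes (7.32%) were lower and 1 (2.44%) higher. Over all genes 7.15% were lower and 5.89% higher, so that this list was not set apart. SF3B3, a subunit of the U2 particle, was one of these 3, at 296 and 317 CPM at the lower and 188 and 217 CPM at the higher dose.

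No gene of cell division passed the adjusted threshold either. In the mitosis list 10 of 37 genes (27%) were lower and 0 higher, and 32 of 37 were below 0 with a median of −0.24. TOP2A, the topoisomerase of dividing cells, was at 857 and 1030 CPM at 1 μg/mL and at 547.5 and 704 CPM at 2 μg/mL, after 1376 and 1557 CPM in DMSO. PLK1, a kinase of mitotic entry, was at 142 and 160 CPM and then 97.2 and 111 CPM, and CCNB1, the mitotic cyclin B1, at 303.5 and 352 and then 212 and 260 CPM. TTK, ASPM, AURKA, NDC80, BUB1B, KIF11 and CCNB2 were the others, and the count was 6 without replicate 1 of 2 μg/mL. In the list of DNA replication 10 of 44 genes (22.7%) were lower and 2 (4.55%) higher, with a median of −0.06 and 15 of 44 members above 0. MCM3 and MCM7, subunits of the replicative helicase, were at 447 and 475 against 296 and 362 CPM and at 430 and 426 against 330 and 352 CPM. ORC2, POLD3, RRM2, PRIM1, RFC3, CDC45, RFC1 and POLD1 were the other 8, and RPA1 and GINS4 were the 2 that were higher. The number that were lower was 3 without replicate 1 of 2 μg/mL, 5 without replicate 1 and 6 without replicate 2 of 1 μg/mL. Of 27 genes of homologous recombination and the Fanconi pathway 4 were lower and 0 higher, among them CHEK2, a checkpoint kinase, at 22.3 and 27.3 against 8.89 and 15.8 CPM, and 0 were lower without replicate 2 of 1 μg/mL or without replicate 1 of 2 μg/mL.

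Genes of ribosomal proteins and oxidative phosphorylation differed little per gene and mostly in one direction. Of 79 ribosomal protein genes 78 were above 0 with a median log2 difference of 0.13, and 13 (16.5%) were higher at an unadjusted p under 0.05 while 0 were lower. FAU, which encodes RPS30 fused to a ubiquitin-like peptide, had the largest difference, from 574 and 534 CPM to 699 and 656 CPM (0.29 ± 0.09). Of 77 genes of oxidative phosphorylation 70 were above 0, the median was 0.20, and 13 (16.9%) were higher and 0 lower. NDUFV1, a core subunit of complex I, was at 192 and 173 CPM and then 266 and 220 CPM, COX6B1 of complex IV at 336.5 and 310 and then 427.5 and 401 CPM, and ATP5F1B of the ATP synthase at 1547 and 1456 and then 1823 and 1777 CPM. The medians kept their sign when any 1 library was left out, at 0.09 to 0.18 for the ribosomal and 0.11 to 0.24 for the oxidative phosphorylation genes. The counts did not hold. Without replicate 1 or without replicate 2 of 1 μg/mL 1 ribosomal protein gene was higher, and without replicate 1 of 2 μg/mL 2 were higher. For oxidative phosphorylation the number was 8, 0 and 2 in these 3 cases, and 13 became 23 with the replicate number as a block (30 for the ribosomal proteins). CPM values are relative, and a higher share of these abundant messages and a lower total of the others cannot be told apart.

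Stress genes differed in both directions. Beside ATF4, HSPA5, the main chaperone of the endoplasmic reticulum, was lower, at 447 and 455 CPM at 1 μg/mL and 353 and 363 CPM at 2 μg/mL. CHAC1, which degrades glutathione, was at 6.09 and 4.22 CPM and was listed at 0 in both libraries of the higher dose. It thus met the minimum of reads only through other libraries, and a 0 can hide up to 2 reads per intron. The chaperone genes DNAJC3, HYOU1, DNAJB11 and CANX were higher, which makes 4 higher (14.3%) and 3 lower (10.7%) of 28. Of 29 targets of NRF2, 6 (20.7%) were lower and 2 (6.9%) higher. HMOX1, heme oxygenase, had 66.6 and 93.9 CPM and then 26.7 and 51.0 CPM, and TXNRD1, thioredoxin reductase, 2027 and 2253 and then 1328 and 1789 CPM. OSGIN1, AKR1C3, GCLC and UGDH were also lower, while TALDO1 and CBR1 were higher. The number that were lower was 3 without either replicate of 1 μg/mL and 2 without replicate 1 of 2 μg/mL, and 0 were higher when any library but replicate 2 of 2 μg/mL was left out. For the stress response list the number that were higher was 1 without either replicate of 1 μg/mL or replicate 1 of 2 μg/mL, and 6 were lower without either DMSO library.

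Of 26 immediate early and short-lived transcripts, 6 (23.1%) were lower and 2 (7.69%) higher. ID3, an inhibitor of basic helix-loop-helix factors, was at 33.4 and 43.9 CPM at 1 μg/mL and at 11.7 and 17.1 CPM at 2 μg/mL, a log2 difference of −1.45 ± 0.28. CCN1, a matrix protein and target of YAP, was at 128 and 133 and then 69.0 and 84.3 CPM, and MCL1, an antiapoptotic BCL2 relative, at 45.4 and 51.9 and then 30.8 and 31.02 CPM. ID1, IER3 and SGK1 were the other 3. In contrast ATF3, a stress-induced transcription factor, was listed at 0 in both DMSO libraries, at 9.03 and 4.07 CPM at the lower and at 22.3 and 16.8 CPM at the higher dose, and PMAIP1, the proapoptotic NOXA, was at 11.3 and 8.89 and then 20.8 and 19.6 CPM. Hosts of small nucleolar RNAs had a median of −0.29, with 4 of 20 (20%) lower. Among them was SNHG7 at 41.1 and 37.8 against 20.8 and 18.5 CPM. That median was between −0.40 and −0.15 when 1 library was left out, and 2 genes were lower without replicate 1 of 1 μg/mL.

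In the remaining lists at most 4 members were at an unadjusted p under 0.05 in either direction, and counts this small moved with single libraries. Over all genes 5.89% were higher and 7.15% lower. Of 44 genes of Mediator and Integrator 4 (9.09%) were lower, with INTS3 at 68.8 and 103 against 33.9 and 53.3 CPM. Of 16 tested interferon-stimulated genes 4 (25%) were higher and 1 (6.25%) lower. Among the former was TAP1, a peptide transporter, at 116 and 117 against 184 and 155 CPM. Without replicate 2 of 1 μg/mL 1 of the interferon-stimulated genes was higher, and without replicate 2 of 2 μg/mL 6 of the Mediator and Integrator genes were lower. Of 23 genes of glycolysis and hypoxia 4 were higher and 3 lower, the latter with PFKFB3, a regulator of glycolytic flux, at 203 and 235 against 107 and 143 CPM, and 8 were higher without replicate 2 of 2 μg/mL but 1 without replicate 1. The 4 and 3 genes of glycolysis and hypoxia were 17.4% and 13% of the list. The hypoxia gene NDRG1 had a log2 difference of 0.77, which was −0.15 over introns listed in all 6 libraries. Of 34 genes of mRNA decay 4 (11.8%) were lower and 1 (2.94%), the exosome nuclease DIS3, was higher. Of 25 genes of TGF-β, YAP and matrix 3 (12%) were lower and 2 (8%) higher. Among the latter was AXL, a receptor tyrosine kinase, at 404 and 395 against 576 and 490.5 CPM. Of 24 genes of cholesterol synthesis and uptake 2 (8.33%) were higher and 1 (4.17%) lower. Among the former was IDI1, an isomerase of isoprenoid synthesis, at 44.7 and 37.5 against 60.4 and 56.0 CPM. In the BCL2 family 2 of 13 (15.4%) were higher and 1 (7.69%), MCL1, was lower. For the proteasome 2 of 33 (6.06%) and for cleavage and polyadenylation 2 of 22 genes (9.09%) were higher and 0 lower. Of 17 heat shock genes 1 (5.88%) was higher and 1 (5.88%) lower, and of 18 genes of nonsense-mediated decay only SMG9 (5.56%) was lower. Of 23 general transcription factors and subunits of TFIIH none was at that level in either direction.

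**Figure D2:**
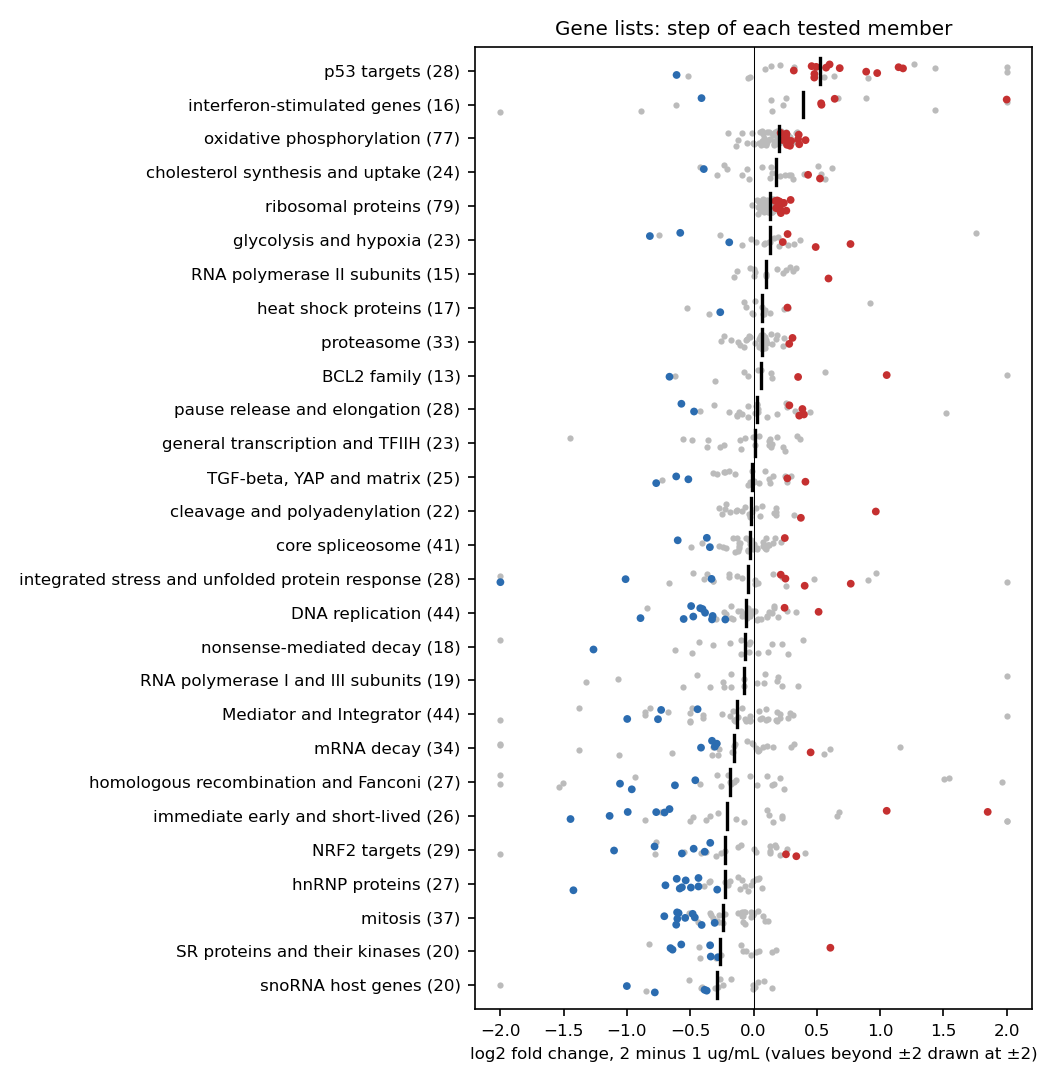
Log2 difference between 2 and 1 μg/mL for each tested member of 28 gene lists (number tested in brackets), with red and blue points for members at an unadjusted p under 0.05 that were higher and lower, grey points for the others and a black bar at the median. The p53 targets have a median of 0.52 and the hosts of small nucleolar RNAs one of −0.29, and the ribosomal proteins form a narrow band above 0.

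The step also differed with gene length. Genes were divided by annotated length into 4 classes of 2411. In the shortest class (180 to 14291 bp) the median log2 difference was 0.06, with 7.13% of genes higher and 4.4% lower at an unadjusted p under 0.05. In the longest class (76375 to 1553083 bp) the median was −0.12, with 3.57% higher and 10.4% lower. Against the mean of 1 μg/mL, the medians of the shortest and longest class were 0.09 and −0.17 in replicate 1 of 2 μg/mL and 0.02 and −0.06 in replicate 2. The replicates differed by a like amount within a dose, since the median of replicate 2 minus replicate 1 in the longest class was 0.13 at 1 μg/mL and 0.09 at 2 μg/mL. Between libraries of the same number the step in the longest class was −0.05 for replicate 1 and −0.11 for replicate 2, and in the shortest class it was 0.06 and 0.05. No test of the trend was made.

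**Figure D3:**
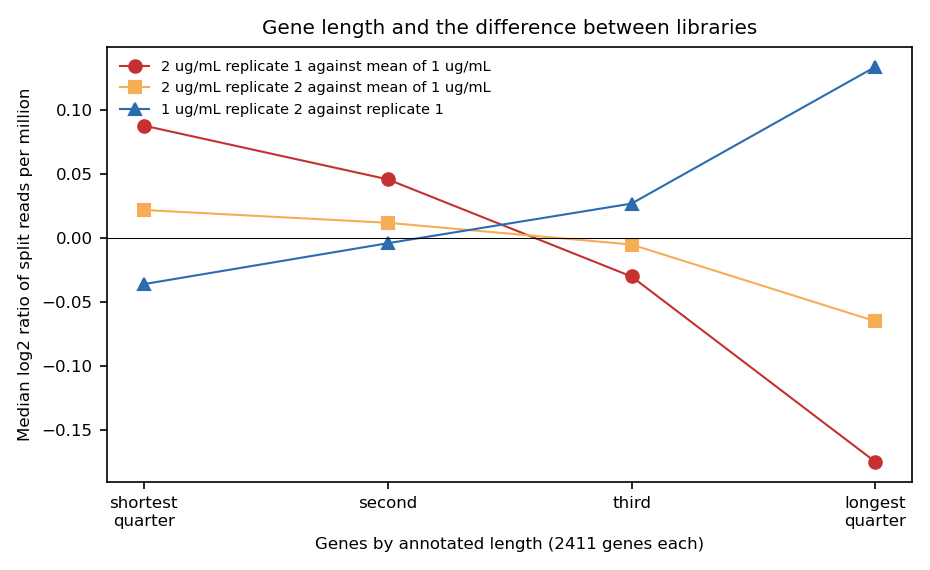
Median log2 ratio of split reads in CPM in 4 classes of annotated gene length, from the shortest to the longest, for each 2 μg/mL library against the mean of 1 μg/mL and for 1 μg/mL replicate 2 against replicate 1. Both 2 μg/mL lines go down with length, to −0.17 and −0.06, and the line of the 1 μg/mL replicates goes up to 0.13.

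Exon inclusion was tested for 9264 exons of 2875 genes with at least 10 reads in the denominator of Ψ in every library. No exon passed an adjusted p of 0.05 (quasi-binomial model moderated with limma, 0 of 9264, 0% called, lowest adjusted p = 0.218). At an unadjusted p under 0.05, 489 exons (5.28%) were more and 699 (7.55%) less included at 2 μg/mL. The numbers were 198 and 253 without replicate 1 of 2 μg/mL, 250 more included without replicate 2 of 1 μg/mL, and 384 less included without replicate 2 of 2 μg/mL. Among the 5234 exons whose inclusion and skipping reads were both listed in all 4 libraries the shares were 3.32% and 4.18%, against 7.82% and 11.9% among the 4030 others. Inclusion or skipping reads were listed in the libraries of 1 dose only in 227 of the exons more included and in 379 of those less included, and for these the filter set the direction. In coding exons 4.7% were more and 8.18% less included, and in exons of the 5′ UTR 6.87% and 4.8%. Exons of a length divisible by 3 and other exons had similar shares, 5.53% and 7.96% against 5.11% and 7.27%. For the 319 exons of up to 30 nts they were 5.02% and 7.21%. Listed exons of a gene can overlap and share reads, as in PSMA6 and PDIA6, so that these are not counts of separate splicing events.

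Some of the exons described below are shown whole or by their splice sites. Bases of the exon are in capitals and those of the flanking introns in lower case (GRCh37, written 5′ to 3′ on the strand of the gene). The small exon of RPS24 was chosen after its values were seen, as the exon with the lowest p, and the pair of exons in TEAD1 and TEAD2 as counterparts in related genes. The exon of GOPC and the splice sites of the exon of CRYZ were taken from those chosen by rule. For the TEAD2 and GOPC exons the filter set the direction, as given below.
RPS24 (chr10:79799954-79799983, + strand): tgattcagTGAGCTGGAGATTGGATCACAG
TEAD1 (chr11:12900427-12900456, + strand): tgtatccagGTAACAAGCATGgtaagtatt
TEAD2 (chr19:49859207-49859236, − strand): cacgggcagGCTCTGAACGTGgtaagttcc
GOPC (chr6:117898608-117898637, − strand): aagTCTGGCCCCTCTGTGGAGGAGCTGgta
CRYZ, acceptor site (chr1:75172883-75172908, − strand): atttctcttttattatatagAAGTAT
CRYZ, donor site (chr1:75172775-75172792, − strand): GTGATAgtaagtattcct

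RPS24 encodes a protein of the small ribosomal subunit, and its 22-nt exon lies next to the end of the reading frame. Its inclusion rate was 0.0533 and 0.0547 at 1 μg/mL against 0.0817 and 0.0804 at 2 μg/mL, with 0.0352 and 0.039 in DMSO. The doses were well separated, with 438 to 1062 inclusion reads behind the values of the α-amanitin libraries. The log2 odds differed by 0.62 ± 0.06 (SE; quasi-binomial model moderated with limma, p = 2.35e-05, adjusted p = 0.218). An entry of 25 nts with the same end differed by 0.63 ± 0.07, from 0.0318 and 0.0328 to 0.0488 and 0.0496. It has the same skipping reads as the 22-nt exon, and no intron with split reads in the α-amanitin libraries ended at its start. Its inclusion reads equal those of an unannotated interval of 628 nts with the same end, so that it is no separate measurement.

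TEAD1 and TEAD2 encode DNA-binding partners of YAP, and each holds an exon of 12 nts. The 2 exons have 5 of 12 bases in common at the same position, and 13 of the 20 bases before each exon are pyrimidines. The TEAD1 exon had a Ψ of 0.165 and 0.140 at 1 μg/mL against 0.333 and 0.318 at 2 μg/mL, against 0.0385 and 0.0805 in DMSO (unadjusted p = 0.00472 in the quasi-binomial model moderated with limma, chosen after its values were seen). The TEAD2 exon had a Ψ of 0.231 and 0.312 at the lower dose and of 0 and 0 at the higher, with 0.136 and 0.189 in DMSO. With 19 and 17 skipping reads at the higher dose, 2 unlisted reads at each junction would allow a Ψ of up to 0.095 and 0.105. The doses did not overlap in TEAD1. The TEAD2 exon met the minimum of inclusion reads through the 1 μg/mL libraries alone, so that the filter set its direction, which is no result.

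Of the 10 exons that were more included by lowest p, 8 were listed without inclusion reads in both 1 μg/mL libraries. Such exons met the minimum of 10 inclusion reads only through the 2 μg/mL libraries, so that their direction was set by the filter and is no result. In GOPC, which encodes a Golgi protein that sorts membrane receptors, a coding exon of 24 nts (the 24 capitals above) had a Ψ of 0 and 0 at 1 μg/mL against 0.286 and 0.315 at 2 μg/mL, with 0 in both DMSO libraries. These values rest on 16 and 23 inclusion reads, and 2 unlisted reads per junction allow up to 0.08 and 0.054 at the lower dose. EPB41L2, LENG8, SLC30A6, WDR45B, TMBIM6, CD55 and the pseudogene PARGP1 were also listed without inclusion at the lower dose, with Ψ at the higher dose between 0.0737 in 1 library of LENG8 and 0.478 in 1 library of PARGP1. In DMSO, PARGP1 had a Ψ of 0.130 and 0.333 and EPB41L2 of 0.0725 and 0, while the other 5 were listed at 0. The 2 exons measured above 0 in all 4 libraries were those of MT1E and ANKRD11. In the metallothionein gene MT1E, whose close relatives share sequence and make read assignment uncertain, Ψ was 0.257 and 0.281 at the lower and 0.433 and 0.448 at the higher dose. In ANKRD11, a chromatin regulator, an unannotated interval of 2087 nts had 0.327 and 0.262 and then 0.685 and 0.545, with 0.155 and 0.176 in DMSO.

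Of the 10 exons that were less included, 7 had a Ψ of 1 in both 1 μg/mL libraries and 2 had a Ψ of 0 in both 2 μg/mL libraries. The 7 met the minimum of 10 skipping reads only through the 2 μg/mL libraries and the 2 that of inclusion reads only through the 1 μg/mL libraries, so that the filter set the direction of these 9. CRYZ, a quinone oxidoreductase, was the exception and had the lowest p of this group. Its coding exon (chr1:75172787-75172888) had a Ψ of 0.526 and 0.567 at 1 μg/mL against 0.315 and 0.299 at 2 μg/mL, with 0.805 and 0.697 in DMSO. The rule that chose these exons required that the doses do not overlap. Both DMSO libraries lay above both doses. The log2 odds differed by −1.47 ± 0.25 between doses (quasi-binomial model moderated with limma, p = 0.000729, adjusted p = 0.224). CCNYL1, a cyclin Y relative, had a Ψ of 1 and 1 for an exon of 52 nts at the lower dose and of 0.405 and 0.52 at the higher. Up to 2 unlisted skipping reads would allow 0.833 and 0.897 at the lower dose. BMP5, ARPC2, METTL21A, DBF4B, SCAF11 and ADNP had the same form, with Ψ at 2 μg/mL from 0.31 to 0.832, and the exon of COA1, like that of TEAD2, was listed without inclusion at the higher dose.

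**Figure D4:**
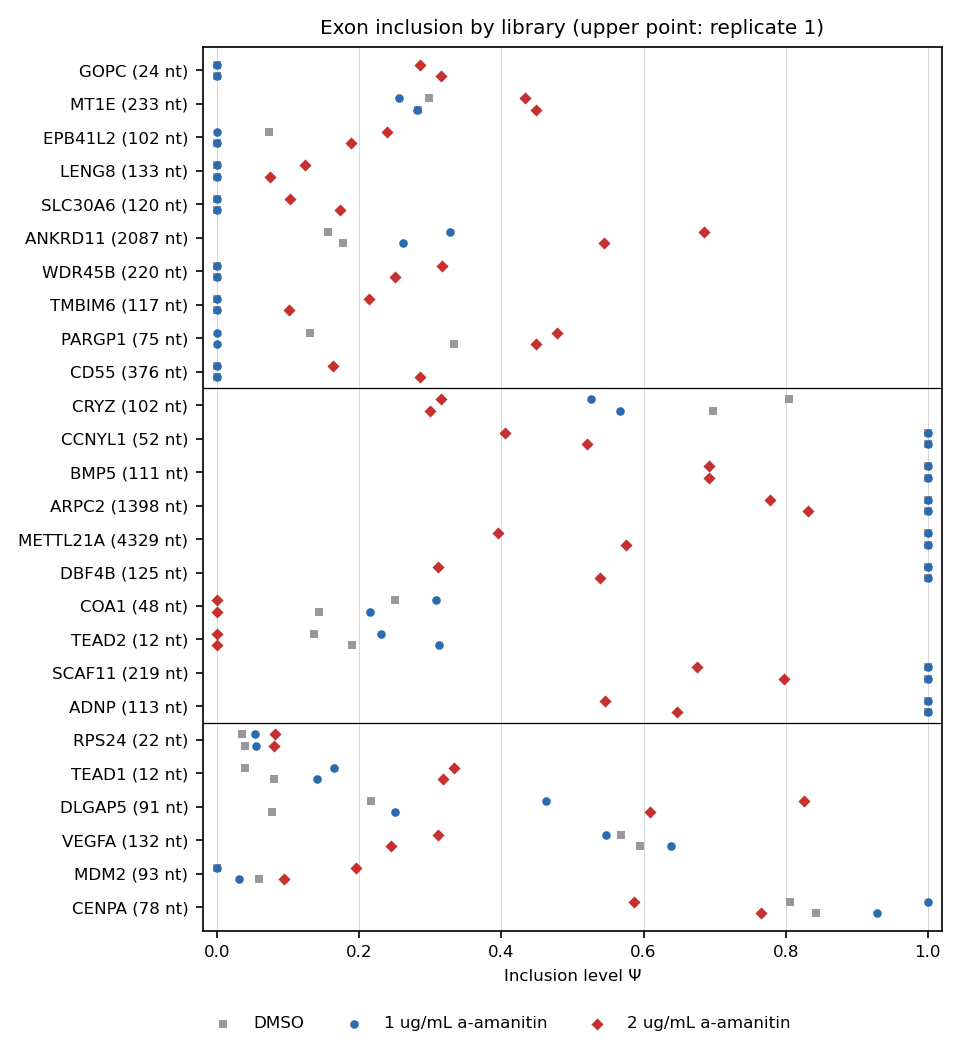
Inclusion rate Ψ of the exons described in the text, for each DMSO, 1 μg/mL and 2 μg/mL library, in 3 blocks from top to bottom: more included at 2 μg/mL, less included, and exons of listed genes chosen after their values were seen. Each point is 1 library with replicate 1 above replicate 2, and most rows of the first 2 blocks have both points of a dose at exactly 0 or 1.

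Several genes of the lists carried exons that differed at an unadjusted p under 0.05, and those that follow were chosen after their values were seen. HNRNPDL has an exon of 105 nts in its 3′ UTR whose Ψ was 0.0798 and 0.0297 at 1 μg/mL against 0.517 and 0.182 at 2 μg/mL, against 0.0102 and 0.0169 in DMSO. HNRNPD, its close relative, has a 3′ UTR exon of 107 nts that was at 0 and 0 and then at 0.0946 and 0.0283. The doses did not overlap in HNRNPDL, while the HNRNPD exon met the minimum of inclusion reads through the 2 μg/mL libraries alone. In SRSF3, a 456-nt exon had a Ψ of 0.019 and 0.0172 at the lower and 0.0376 and 0.0288 at the higher dose. Over the 133 tested exons of the hnRNP list 4 were more and 7 less included, and over 48 exons of the SR list 3 were more and 2 less. Over all tested exons the shares were 5.28% and 7.55%. Listed exons can share reads, as those of SRSF1 and some of HNRNPA2B1 do, so that these are not counts of separate events. In SRPK1, SRSF1, HNRNPD and HNRNPM 1 kind of read was listed at 2 μg/mL only, so that the filter set the direction.

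DLGAP5, a protein of the mitotic spindle, had a coding exon of 91 nts with a Ψ of 0.463 and 0.25 at 1 μg/mL against 0.825 and 0.608 at 2 μg/mL, with 0.216 and 0.0769 in DMSO. A 93-nt exon of MDM2 was at 0 and 0.0309 at the lower dose and at 0.196 and 0.0943 at the higher. CENPA, the centromeric histone H3, had a 78-nt exon at 1 and 0.929 and then at 0.586 and 0.765. Its values in DMSO, 0.8065 and 0.8427, lay between those of the doses. VEGFA, an angiogenic growth factor with several terminal isoforms, had a coding exon (chr6:43749693-43749824) at 0.547 and 0.639 at 1 μg/mL against 0.31 and 0.244 at 2 μg/mL (quasi-binomial model moderated with limma, unadjusted p = 0.005). The values of VEGFA at 1 μg/mL were near those in DMSO, 0.569 and 0.595. In ADRM1, the ubiquitin receptor of the proteasome, a 117-nt exon went from 0.832 and 0.871 to 0.674 and 0.726. A 48-nt exon of YAP1 was at 0.345 and 0.321 and then 0.101 and 0.213. In PKM, which is known for a choice between neighbouring exons, a 167-nt exon had a Ψ of 0.0801 and 0.0969 at the lower and 0.0697 and 0.0738 at the higher dose.

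The study compared exons after short and long introns when RNA Pol II was slowed, with α-amanitin set against a control. It reported higher inclusion after short introns and lower inclusion after long ones. The same division was applied here to the step between doses, which is an unlike contrast without the control. Exons were used if the denominator reached 10 in both doses, and those with a mean Ψ from 0.05 to 0.95 were divided at a length of 1729 bp of the preceding intron. The median of Ψ at 2 minus Ψ at 1 μg/mL (reads pooled per dose) was −0.0194 for 4267 exons after short introns (quartiles −0.121 and 0.0592) and −0.0123 for 4265 exons after long introns (quartiles −0.113 and 0.0694). More exons were above 0 after long introns (45.5%) than after short ones (42.2%). The difference of the medians, −0.0072, was −0.0072 in replicate 1 of 2 μg/mL and −0.002 in replicate 2. Between the replicates of 1 μg/mL it was −0.0052, and between those of 2 μg/mL it was 0.0017. The difference between doses was thus near that between the libraries of 1 μg/mL and larger than that between the libraries of 2 μg/mL. No test was made. Among exons with skipping reads listed in all 4 libraries the medians were −0.0038 (1980 exons) and 0 (1979 exons).

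Unspliced reads were tested for 6438 introns of 2567 genes. No intron passed an adjusted p of 0.05 (quasi-binomial model moderated with limma, 0 of 6438, 0% called, lowest adjusted p = 0.399). At an unadjusted p under 0.05, 234 introns (3.63%) had a higher and 346 (5.37%) a lower unspliced share at 2 μg/mL. These counts were 43 and 395 without replicate 1 of 2 μg/mL, and 318 and 147 without replicate 1 of 1 μg/mL, so that the balance of the directions turned with a single library. In the 3995 introns with both kinds of read listed in all 4 libraries, 51 (1.28%) were higher and 131 (3.28%) lower. In 137 of the 234 and 161 of the 346 introns 1 kind of read was listed in the libraries of 1 dose only, so that the filter set their direction. Of 931 introns of up to 120 nts 15 (1.61%) were higher and 62 (6.66%) lower, and of 721 last introns 17 (2.36%) and 53 (7.35%). First introns were evenly divided, with 26 and 25 of 739.

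The introns of HNRNPDL, TPM1 and DDX39B had unspliced reads in all 4 libraries and are shown by their splice sites, with exon bases in capitals and intron bases in lower case (GRCh37, written 5′ to 3′ on the strand of the gene). They stand for the introns that were lower (the first and second) and higher (the third) at the higher dose.
HNRNPDL, donor site (chr4:83347178-83347195, − strand): AAACAGgtgtgtataaga
HNRNPDL, acceptor site (chr4:83346815-83346840, − strand): accttgtttgtacccgccagCGGGAA
TPM1, donor site (chr15:63353982-63353999, + strand): GAGAAGgtaggccaggag
TPM1, acceptor site (chr15:63354394-63354419, + strand): aatgctctttctaattacagTACTCG
DDX39B, donor site (chr6:31503132-31503149, − strand): CAAGATgtaaataccctt
DDX39B, acceptor site (chr6:31500683-31500708, − strand): acccccttcctcccccccagCCAATG

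The intron of HNRNPDL is 369 nts long and ends at the 3′ UTR exon described above. Its unspliced share was 65.4% and 65.4% at 1 μg/mL against 25.4% and 18.0% at 2 μg/mL, after 82.6% and 78.2% in DMSO. The step of −43.7 percentage points was the largest of the 20 introns chosen by rule (quasi-binomial model moderated with limma, p = 0.00089, adjusted p = 0.399). It rests on 34 and 34 unspliced against 9 and 9 split reads at the lower dose, and on 15 and 11 against 22 and 25 at the higher. The higher inclusion of the exon and the lower unspliced share of the intron before it share these split reads and are not independent measurements, while the split reads of the whole gene were lower at the same step.

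In TPM1, a tropomyosin of actin filaments, the intron of 426 nts had an unspliced share of 30.4% and 28.7% at 1 μg/mL against 7.77% and 11.1% at 2 μg/mL, with 27.4% and 33.3% in DMSO, so that the lower dose lay within the range of DMSO. In H2BC5, a gene of histone H2B, the first intron of 12415 nts was at 78.1% and 83.8% and then at 43.4% and 52.6%, with 91.4% and 96.9% in DMSO. At 1 μg/mL it had 150 and 186 unspliced against 21 and 18 split reads. From which transcripts of the gene the unspliced reads came was not tested. POLD4, a small subunit of DNA polymerase δ, was at 34.3% and 37.2% and then at 13.6% and 6.06%. The rule that chose these introns required that the doses do not overlap. CNPY2 and SUN1 were lower as well, and in TRPT1, DHX30, MFF and DPP7 no unspliced read was listed at the higher dose, so that these 4 met the minimum through the lower dose alone.

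DDX39B, an RNA helicase that acts in splicing and export, had an intron of 2455 nts with an unspliced share of 21.7% and 18.6% at 1 μg/mL and of 40.5% and 30.2% at 2 μg/mL, after 14.4% and 14.8% in DMSO. PIDD1, a p53-induced protein with a death domain, had an intron of 116 nts at 50.6% and 29.6% and then at 74.7% and 76.7%, with 38.5% and 21.9% in DMSO. The replicates of PIDD1 at 1 μg/mL were further apart than in the other introns named. The other 8 introns that were higher (BABAM1, ZC3H15, FBXO9, SIN3B, CLASRP, TNKS1BP1, ANKLE2 and ARPC2) had no or up to 4 unspliced reads in each 1 μg/mL library and shares between 5.26% and 20.5% at 2 μg/mL. Of these, 6 had no unspliced read listed at the lower dose, so that they met the minimum of 10 only through the dose at which they were higher.

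**Figure D5:**
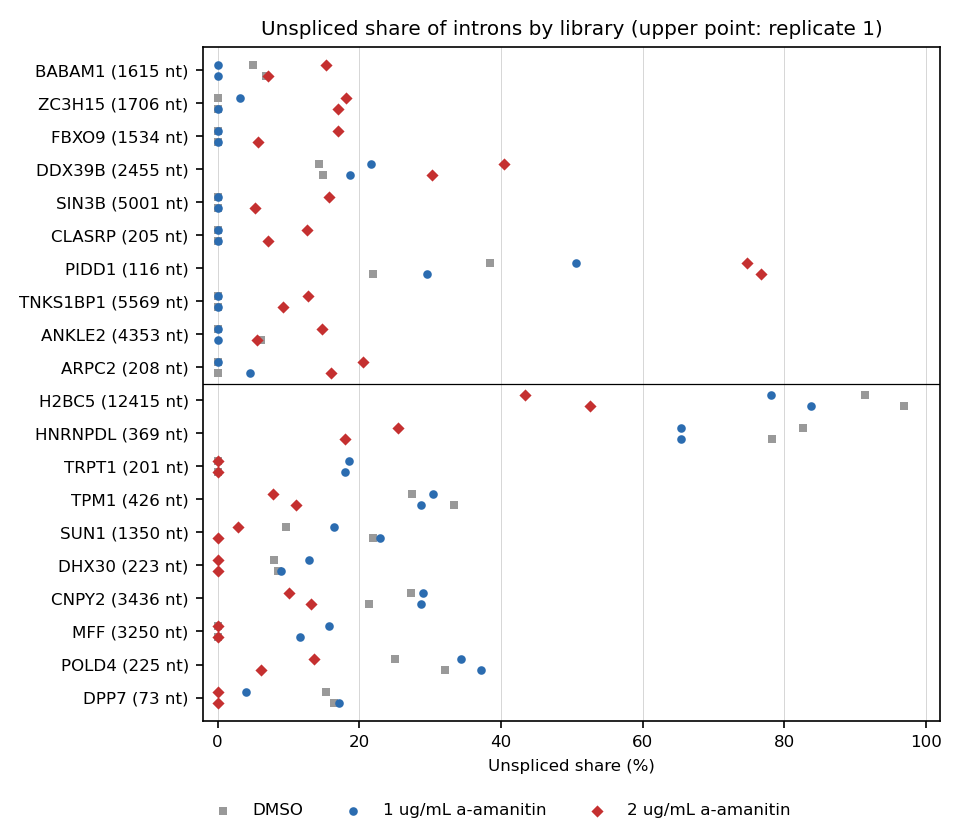
Unspliced share in percent of the 10 introns that were higher (top) and the 10 that were lower (bottom) at 2 μg/mL with the lowest p, for each DMSO, 1 μg/mL and 2 μg/mL library, with the length of the intron beside the gene. Each point is 1 library with replicate 1 above replicate 2, and the intron of HNRNPDL shows the largest step, from 65.4% in both 1 μg/mL libraries to 25.4% and 18.0%.

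The unspliced share of whole libraries differed less between doses than between replicates. Over the 65135 introns listed in all 4 libraries it was 13.9% and 11.4% at 1 μg/mL against 13.45% and 11.1% at 2 μg/mL, with 12.2% and 10.9% in DMSO. The difference of the means was −0.4 percentage points (exact permutation test, two-sided, p = 0.667), and a test of 2 against 2 libraries cannot go below p = 0.333. A single interval at chr21:9827106-9827418 held 648613 and 741758 unspliced reads at 1 μg/mL against 690667 and 642507 at 2 μg/mL beside 23 to 52 split reads, which is 5.02 to 6.53 points of these shares. Intervals of MT-RNR1 and MT-RNR2, the genes of mitochondrial ribosomal RNA, held up to 1.25 and 0.72 points in a library, so that the share is not one of pre-mRNA alone, and from which RNA the reads on chromosome 21 came was not tested. The share was lower at 2 μg/mL for either replicate number. Over the 64406 annotated introns the share was 2.1% and 1.89% at the lower and 2.02% and 1.78% at the higher dose.

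Over all listed introns the share was 26.8% and 23.5% at 1 μg/mL against 19.8% and 18.0% at 2 μg/mL, a difference of −6.27 points (exact permutation test, two-sided, p = 0.333, the smallest possible). This difference moves with introns that are not listed in every library. Such introns held 1835895 and 2408045 unspliced reads at the lower and 1061188 and 1170314 at the higher dose, and 10 of them held 1453745 and 1684715 of the former and 424423 and 554898 of the latter. The interval chr21:9827147-9827300 is an example, with 1179330 unspliced reads in replicate 1 of 1 μg/mL beside 4 split reads, and was listed in none of the other 3 α-amanitin libraries. Whether the toxin has a part in these counts was not tested.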

How the data were processed

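RNA-seq libraries of A549 cells were compared for 2 and 1 μg/mL α-amanitin, with 2 libraries each and 2 DMSO libraries in the same fit. Alignment by the authors was to GRCh37, for which the submitters' notes name STAR 2.7.3a, and counting was done with IPSA. The deposited files hold, within a text field, raw counts of split and unspliced reads per intron and of inclusion and skipping reads per exon, with no normalization that the files show. The deposited score column is a rescaled value for display and was not used. DRB libraries were not used beyond the depth range and 1 alternative.

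Introns and exons were given to genes with GENCODE v44lift37 without read-through transcripts. Of 126404 introns 86.9% and of 270665 exons 90.3% matched exactly, and no gene sum used the 1950 introns that fall to more than 1 gene. Gene sums needed 10 reads in 2 libraries and 15 in all, were TMM-scaled with code of this re-analysis, and were tested with limma voom (limma 3.58.1, R 4.3.3). Exons needed a denominator of Ψ of 10 in each of the 6 libraries and 10 inclusion and 10 skipping reads over the 4 α-amanitin libraries. Introns needed 20 reads in each library and 10 of each kind over the 4. Both were tested by an F test in a quasi-binomial model whose spread was moderated with limma, with a floor of 1. p-values were adjusted by Benjamini-Hochberg over all features tested, with 0.05 as the threshold. The count test first planned was replaced by limma voom, because the counts stand in a text field with no unit of its own. The tests were tested on simulated data.

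The named features were the 10 per direction with the lowest p among those with dose groups apart, since none passed the threshold. Genes needed a mean of 50 reads, and exons (1 per gene) and introns a difference of 0.1 in Ψ or 10 percentage points. To these come POLR2A and the 3 members of each list with the largest moderated statistic, and the other list members named are those at an unadjusted p under 0.05 or were chosen after their values were seen. The comparison, its members and the lists were chosen with earlier results of these data known. Replicates of a dose were distinct libraries (chi-squared over degrees of freedom, 9.89 at 1 and 12.9 at 2 μg/mL). Some members of the lists are counted but not reported here by name.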

Additional observations from a re-analysis of the deposited data

How the results depend on the processing

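Of the 1644 gene values recomputed, 1631 kept their direction and their side of the threshold, and no exon or intron value reversed. The exons and introns recomputed were the named ones, chosen with dose groups apart, so that leaving out 1 library could not reverse them. The genes named by lowest p were chosen in the same way. The lack of reversals is therefore no support for these directions. Depth limits gene sums, exons and introns, since a listed 0 can hide 2 reads. Of the 20 named exons, 17 have both libraries of a dose at 0 or 1. The replicate numbers are shared labels without a stated batch. Replicate 1 minus replicate 2 correlated with 0.494 between the doses over 7239 genes, a hint from the data, not the design. With the replicate block 1042 genes were higher and 1009 lower (lowest adjusted p = 0.0616 with limma voom), exons numbered 296 more and 484 less included, and introns 194 and 251. The block within the 4 α-amanitin libraries, added after the data were seen, gave 1275 and 1098 genes.

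Summing introns listed in every library gave 6 genes past the threshold, and Fisher's exact test of reads pooled by dose, blind to replicate spread, gave 1450 exons (1044 and 1359 at an unadjusted p under 0.05) and 706 introns (558 and 890). Without a filter on low counts there were 828 and 1175 exons and 535 and 733 introns, with a 3 times higher minimum 94 and 176 introns, and with limma on log odds 277 exons more included and 148 and 230 introns. Donor reads alone gave 111 and 206 introns, acceptor reads alone 129 and 161. The share over all listed introns moved to −6.27 points. When 1 library was left out, the numbers ranged from 142 to 757 and from 238 to 665 for genes, from 198 to 423 and from 253 to 698 for exons, and from 43 to 318 and from 147 to 395 for introns (higher or more included first).

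The medians after short and long introns were 0 and 0 at any Ψ, −0.0038 and 0 with listed skipping, −0.031 to −0.0161 and −0.0238 to −0.01 without 1 library, and −0.005 after the highest quartile of intron length. Their difference was 0 at any Ψ, −0.0016 at a denominator of 30 and −0.0119 to −0.002 without 1 library. KRT7 reversed to −0.017 with total-read scaling, to −0.21 without replicate 2 of 1 μg/mL and to −0.18 without replicate 1 of 2 μg/mL, KRT18 to 0.12 and 0.10 in these last 2 cases, COL1A1 to 0.22 without replicate 2 of 2 μg/mL (−1.35 without replicate 1), and NDRG1 to −0.15 over introns listed in every library. The causes were not tested. DESeq2 was not run, for the reason given with the methods.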
